A study of Mus musculus with 20 samples.

Results

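Long-term growth with hexavalent chromium, Cr(VI), was compared with growth without it in the mouse hepatoma line Hepa-1 at passage 25, in cells given only the solvent DMSO for the last 8 h. The comparison holds 4 of the 20 RNA-seq libraries of the study, chosen by their labels: 2 of Cr(VI)-grown cells and 2 of control-grown cells, paired by replicate number. The Cr(VI)-grown cells had 25 passages with Cr(VI), at a concentration printed as 0.5 mM in the labels, and then 8 h of DMSO. That unit could not be checked against another source and may be a misprint for a lower one, so the dose is given only as labelled. The control-grown cells had the same number of passages without Cr(VI) and the same 8 h of DMSO. The labels give no genotype, clone or pooling of cultures, and the sample titles carry 27 where the passage label reads 25. Whether the 2 libraries of a group came from separate cultures is not stated, so a p-value here speaks only of how far these libraries differ, and that spread may be technical.

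The study as a whole has 10 groups of 2 libraries. Cr(VI)-grown and control-grown cells were also sampled at passage 20, and cells at both passages were also treated with benzo[a]pyrene (B[a]P), a combustion product that activates the aryl hydrocarbon receptor (AHR). A further pair of groups at passage 25, called recovered cells here, spent 20 passages in Cr(VI) and the last 5 passages in medium without the metal. The question for this comparison is which messenger RNAs differ after long growth with Cr(VI) when no B[a]P is given.

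Cr(VI) enters cells as chromate through anion transporters and is reduced inside them by ascorbate, glutathione and other thiols. The reduced chromium binds DNA and proteins, and the lesions are handled by excision, mismatch, crosslink and break repair, with p53 as the transcription factor that reads out DNA damage. Metallothioneins, which bind zinc, copper and cadmium, are induced through the metal-responsive factor MTF1 and its short binding element. Hepa-1 is widely used in toxicology because its AHR pathway is intact, and it keeps part of the hepatocyte programme, including Alb (albumin) and Afp (alpha-fetoprotein).

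The upstream sequences of 2 genes are printed because these lie on opposite sides in the results below: Mt2 (metallothionein 2), which was higher in Cr(VI)-grown cells in both pairs, and Hmgcs1 (cytosolic HMG-CoA synthase of the cholesterol pathway), which was lower in both. Each is the 250 bases before the gene's start in the RefSeq promoter table of GRCm38.p6, at chr8:94172368-94172617 on the plus strand for Mt2 and at chr13:119690101-119690350 on the plus strand for Hmgcs1. Capitals in the first mark the core of the metal response element, TGCNCNC, with 3 matches on the printed strand and 2 on the other. Capitals in the second mark a core of the sterol regulatory element, TCACCCCAC, with 1 match on the printed strand.
Mt2: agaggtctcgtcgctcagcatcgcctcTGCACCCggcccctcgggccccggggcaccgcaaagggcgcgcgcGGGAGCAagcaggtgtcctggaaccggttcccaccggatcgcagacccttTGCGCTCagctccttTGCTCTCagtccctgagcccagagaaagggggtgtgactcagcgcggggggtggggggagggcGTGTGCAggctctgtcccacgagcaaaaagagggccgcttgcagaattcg
Hmgcs1: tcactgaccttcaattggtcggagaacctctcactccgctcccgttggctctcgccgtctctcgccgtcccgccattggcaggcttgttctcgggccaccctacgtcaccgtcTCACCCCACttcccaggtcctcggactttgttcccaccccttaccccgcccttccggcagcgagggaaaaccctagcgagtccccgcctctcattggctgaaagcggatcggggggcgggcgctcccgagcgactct
Of the 32851 such windows in the table, 44.4% held at least 1 match to the metal element and 0.496% at least 1 to the sterol element, both strands searched. A match is a description of letters and not a bound site.

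Total counts were 36362892 and 24866550 in the Cr(VI)-grown libraries (replicates 1 and 2), against 34290046 and 21795837 in the control-grown libraries, within a range of 20976045 to 37930720 over the study. The replicate number moved far more of the transcriptome than the growth history did. In the 12 libraries of passage 25 the first principal component held 72.7% of the variance and placed the Cr(VI)-grown libraries at -27.4 and 78.5 and the control-grown libraries at -79.4 and 54.7, so it separated the replicate numbers and lay higher in the Cr(VI)-grown library of each pair. The 100 most abundant genes took 26.0% and 34.3% of the counts in Cr(VI)-grown cells, against 19.8% and 29.6% in control-grown cells. The replicate 2 minus replicate 1 difference in recovered cells, which uses none of the 4 libraries compared here, is therefore given beside the medians of the gene groups below. Its part in the results was not tested. Alb was abundant, with 2521 and 3504 CPM (counts scaled to a common library size and composition) in Cr(VI)-grown cells, against 2330 and 4818 CPM in control-grown cells. Afp had 189 and 302 CPM in Cr(VI)-grown cells, against 177 and 258 CPM in control-grown cells. Of 30 genes for proteins that hepatocytes secrete, 13 had too few counts to be tested, among them Apoa1, Apoc3 and Serpina1b with no count in the 4 libraries, so the hepatocyte label holds only in part.

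No gene of 13692 tested passed an adjusted p of 0.05 when Cr(VI)-grown cells were compared with control-grown cells (edgeR quasi-likelihood test on the 12 libraries of passage 25 with the replicate number as a block, Benjamini-Hochberg adjustment). The share of genes called was 0%, and the smallest adjusted p was 0.225. At an unadjusted p under 0.05 there were 1633 genes higher (11.9% of those tested) and 710 lower (5.19%). The fitted difference was above 0 for 47.7% of genes and below 0 for 52.3%. The counts of each gene group below are to be read against these 4 shares. A fit to the 4 libraries alone, which has 1 residual degree of freedom and takes 1 trend of spread for all genes, put 2163 genes past the adjusted threshold (16.8% of 12889), 1605 of them higher (12.5%) and 558 lower (4.33%). DESeq2 on the 12 libraries with the same block gave 11303 genes an adjusted p and placed 206 past it (1.82%), 179 of them higher (1.58%) and 27 lower (0.239%). "Higher" and "lower" below give the sign of a measured difference, with the unadjusted p where one is printed, and no gene below is claimed as changed beyond it.

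**Figure D1:**
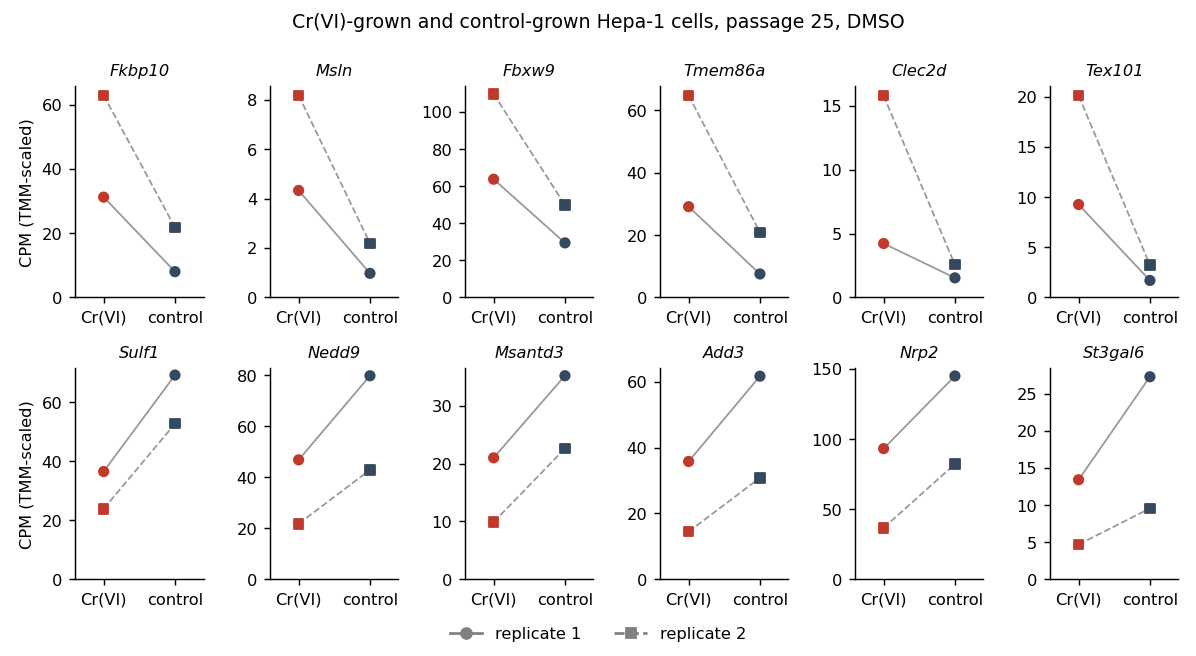
CPM of 6 named genes on the higher side (top row) and 6 on the lower side (bottom row) in each library, Cr(VI)-grown cells at left and control-grown cells at right in each panel. Circles are replicate 1, squares are replicate 2, and lines join the libraries of a pair. In each of the 6 upper genes both Cr(VI)-grown libraries lie above both control-grown ones, while among the 6 lower genes this separation holds for Sulf1 and Msantd3.

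The genes with the smallest p on the higher side included secretory pathway and surface protein genes. Fkbp10, a prolyl isomerase of the endoplasmic reticulum that helps fold collagen (chr11:100415694-100424840, RefSeq GRCm38.p6), had 31.2 and 62.9 CPM in Cr(VI)-grown cells, against 8.03 and 21.8 CPM in control-grown cells. The groups did not overlap, and the log2 difference was 1.76 ± 0.29 (SE; unadjusted p = 4.51e-05, adjusted p = 0.225). Serpinh1, the collagen chaperone HSP47, had 10.1 and 21.3 CPM in Cr(VI)-grown cells, against 2.60 and 6.78 CPM in control-grown cells, a log2 difference of 1.81 ± 0.36 (adjusted p = 0.225). Msln, the surface protein mesothelin (chr17:25748613-25754378), had 4.33 and 8.17 CPM in Cr(VI)-grown cells, against 0.975 and 2.19 CPM in control-grown cells. Its log2 difference was 2.03 ± 0.34, again without overlap. Tex101, a surface glycoprotein best known from germ cells, showed the largest difference of the 15 genes: 9.26 and 20.1 CPM in Cr(VI)-grown cells, against 1.70 and 3.23 CPM in control-grown cells, a log2 difference of 2.53 ± 0.48.

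Other genes on that side act inside the cell. Fbxw9, a substrate receptor of SCF ubiquitin ligases, had 63.7 and 110 CPM in Cr(VI)-grown cells, against 29.4 and 49.9 CPM in control-grown cells, and its 2 pairs gave nearly equal log2 differences of 1.11 and 1.14. Tmem86a, a lysoplasmalogenase, had 29.1 and 64.7 CPM in Cr(VI)-grown cells, against 7.52 and 20.9 CPM in control-grown cells. Cpt1c, the brain-type member of the carnitine palmitoyltransferase family, had 55.4 and 97.7 CPM in Cr(VI)-grown cells, against 30.2 and 47.6 CPM in control-grown cells. Its log2 difference of 0.96 ± 0.19 was the smallest of the 15. Unc13d, which primes secretory granules for release, was 1.12 ± 0.22 higher on the log2 scale, and Cyp21a1, the steroid 21-hydroxylase, 0.99 ± 0.20. Clec2d, a lectin-like ligand of natural killer cell receptors, had 4.22 and 15.8 CPM in Cr(VI)-grown cells, against 1.53 and 2.56 CPM in control-grown cells. Comtd1 (1.31 ± 0.26), the kinase anchor gene Akap5 (1.66 ± 0.33) and Mdfi (1.41 ± 0.29), an inhibitor of myogenic transcription factors, completed this side together with Sprr2a1 and Sprr2a2. Both of these epidermal small proline-rich genes were listed with identical values, 78.2 and 137 CPM in Cr(VI)-grown cells, against 23.3 and 42.7 CPM in control-grown cells. They are near-identical copies whose reads cannot be told apart, so they stand for 1 measurement. Over the 15 genes, with both copies counted, 13 had groups that did not overlap, against 7.60% of all genes tested on the higher side. This separation follows from the choice by small p.

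On the lower side the differences were smaller and the replicate number weighed more. Sulf1, an extracellular enzyme that removes 6-O-sulfate from heparan sulfate (chr1:12692197-12861192), had 36.5 and 23.9 CPM in Cr(VI)-grown cells, against 69.2 and 52.7 CPM in control-grown cells, with no overlap. Its log2 difference was -1.02 ± 0.20 (unadjusted p = 0.000193, adjusted p = 0.225). Msantd3 was the other gene of the 15 without overlap, with 20.98 and 9.88 CPM in Cr(VI)-grown cells, against 35.2 and 22.6 CPM in control-grown cells. For the remaining 13 the replicate 2 library of control-grown cells lay below the replicate 1 library of Cr(VI)-grown cells, so only the comparison within pairs separated the groups. Genes that do not overlap on the lower side made up 8.09% of all genes tested.

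Several of the lower genes act in adhesion, migration and growth factor signalling. Nedd9, a scaffold of focal adhesion signalling, had 46.8 and 21.8 CPM in Cr(VI)-grown cells, against 79.7 and 42.9 CPM in control-grown cells. Met, the receptor of hepatocyte growth factor, had 105 and 47.6 CPM in Cr(VI)-grown cells, against 161 and 98.7 CPM in control-grown cells, a log2 difference of -0.82 ± 0.22. Nrp2, a co-receptor for semaphorins and VEGF, had 93.2 and 36.7 CPM in Cr(VI)-grown cells, against 145 and 82.2 CPM in control-grown cells. Prkca, protein kinase C alpha, had 21.1 and 3.81 CPM in Cr(VI)-grown cells, against 32.7 and 10.3 CPM in control-grown cells. Thus each of these genes was lower within both pairs, while replicate 2 was lower than replicate 1 in both groups. The membrane skeleton gene Add3 (-0.92 ± 0.22), the sialyltransferase gene St3gal6 (-1.02 ± 0.25), the G protein gamma subunit gene Gng10 (-0.86 ± 0.23) and the replication fork repair gene Mms22l (-0.82 ± 0.21) were also on this side. So were Ecpas (-0.89 ± 0.23), which adapts the proteasome, the ubiquitin ligase gene Trim37 (-0.73 ± 0.20), Utp3 (-0.78 ± 0.21), which serves in ribosomal RNA processing, Tnip3 (-1.30 ± 0.34), a regulator of NF-kB, and the long noncoding RNA AW112010 (-1.29 ± 0.34). In recovered cells the median replicate 2 minus replicate 1 difference was 1.44 on the log2 scale over the 15 higher genes and -1.19 over the 15 lower genes. Each of the 30, with Sprr2a1 and Sprr2a2 both counted, had the sign in that replicate difference that it had here. The part of that difference was not tested. The 15 higher genes had a median span of 6.66 kb in the genome, and the 15 lower genes one of 107 kb.

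**Figure D2:**
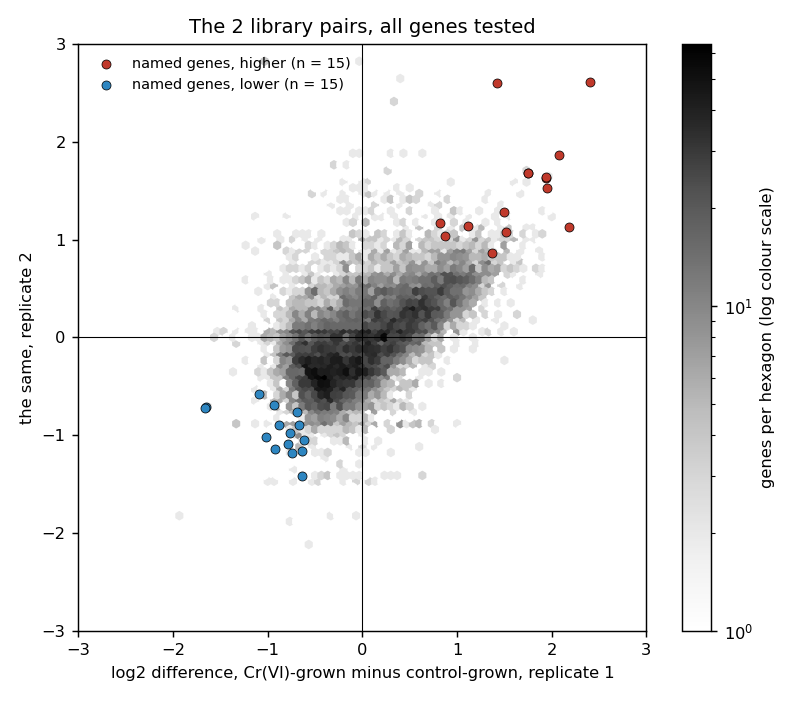
Log2 difference of Cr(VI)-grown minus control-grown cells in replicate 1 (x axis) and in replicate 2 (y axis) for the genes tested, with grey hexagons shaded by the number of genes and coloured points for the 30 named genes. The cloud is stretched along the diagonal (Pearson r = 0.476 over 13692 genes, which are not independent replicates), and 21 genes lie outside the axes.

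The pairs share no library, and over the 13692 genes their differences correlated with r = 0.476. The differences of pair 1 correlated with r = 0.730 with the replicate 2 minus replicate 1 difference of recovered cells under DMSO, and those of pair 2 with r = 0.323. Both pairs were above 0 for 35.6% of genes and below 0 for 36.6%. These are descriptions across genes that share 4 or 6 libraries each.

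**Figure D3:**
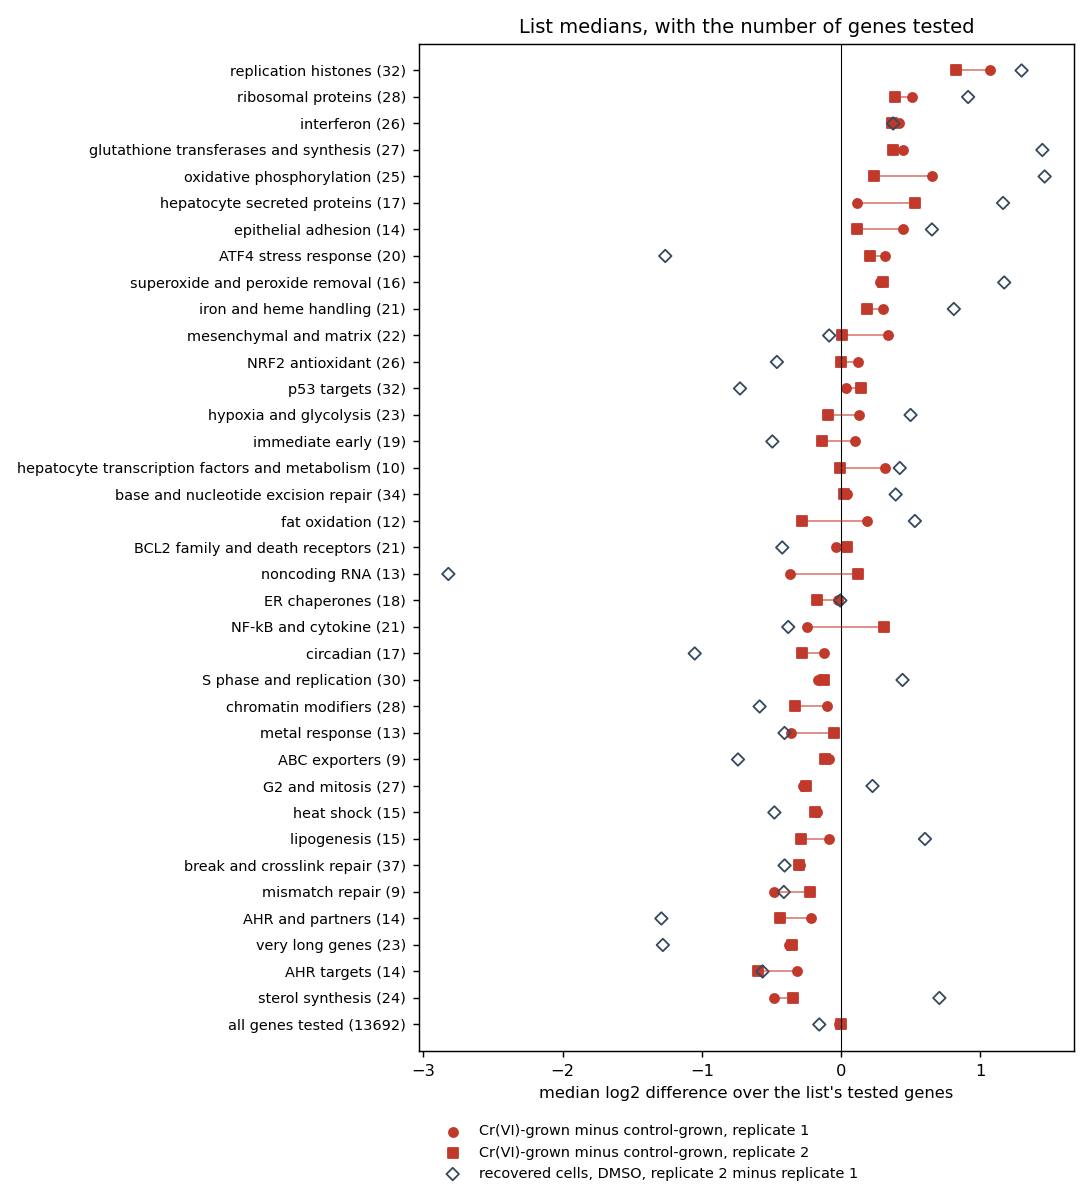
Median log2 difference over the tested genes of 36 gene lists with at least 9 genes tested and over all genes tested (bottom row). Filled circles and squares are Cr(VI)-grown minus control-grown cells in replicates 1 and 2, and open diamonds are replicate 2 minus replicate 1 in recovered cells under DMSO. Replication histones lie highest in both pairs, and for sterol synthesis, the ATF4 response and p53 targets, among others, the diamonds lie on the other side of 0 from both pairs.

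Genes of the metal response split. Mt2 had 53.1 and 102 CPM in Cr(VI)-grown cells, against 31.0 and 42.1 CPM in control-grown cells, without overlap. The log2 difference was 1.00 ± 0.31 (unadjusted p = 0.0067, adjusted p = 0.225). Mt1, the other metallothionein of liver, had 154 and 299 CPM in Cr(VI)-grown cells, against 92.5 and 154 CPM in control-grown cells, a log2 difference of 0.83 ± 0.31. The factor that drives both, Mtf1, had 43.0 and 66.7 CPM in Cr(VI)-grown cells, against 28.1 and 42.7 CPM in control-grown cells. Its groups only just did not overlap, at 43.0 against 42.7 CPM. Slc31a1, the high-affinity copper importer CTR1, was lower, with 56.1 and 40.7 CPM in Cr(VI)-grown cells, against 77.4 and 78.2 CPM in control-grown cells. Its control values were nearly equal, the groups did not overlap, and the log2 difference was -0.70 ± 0.21. Slc30a1, a zinc exporter that is itself a known MTF1 target, had 7.11 and 1.77 CPM in Cr(VI)-grown cells, against 10.6 and 4.28 CPM in control-grown cells, so its difference was opposite in sign to that of the metallothioneins. Slc39a8, a zinc and manganese importer, was also lower (-0.61 ± 0.27). Of 13 tested genes in this list of 16, 3 were higher and 3 lower at an unadjusted p under 0.05. Each is 23.1% of the list, beside 11.9% and 5.19% of all genes. The median log2 difference of the 13 was -0.25, against -0.04 over all genes tested. In recovered cells the list's median replicate difference was -0.41 under DMSO. The list's median depended on 1 library, and was 0.01 without the Cr(VI)-grown replicate 1 library. Of the anion transporters through which chromate can enter, Slc26a2 had 15.9 and 6.40 CPM in Cr(VI)-grown cells, against 16.2 and 8.19 CPM in control-grown cells, a log2 difference of -0.18 ± 0.26 that its SE exceeds. Among 7 tested genes of sulfate and anion transport 4 were above 0 and 3 below, with a median of 0.07. At an unadjusted p under 0.05, 1 of the 7 was higher (14.3%, near the 11.9% of all genes) and 0 lower.

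**Figure D4:**
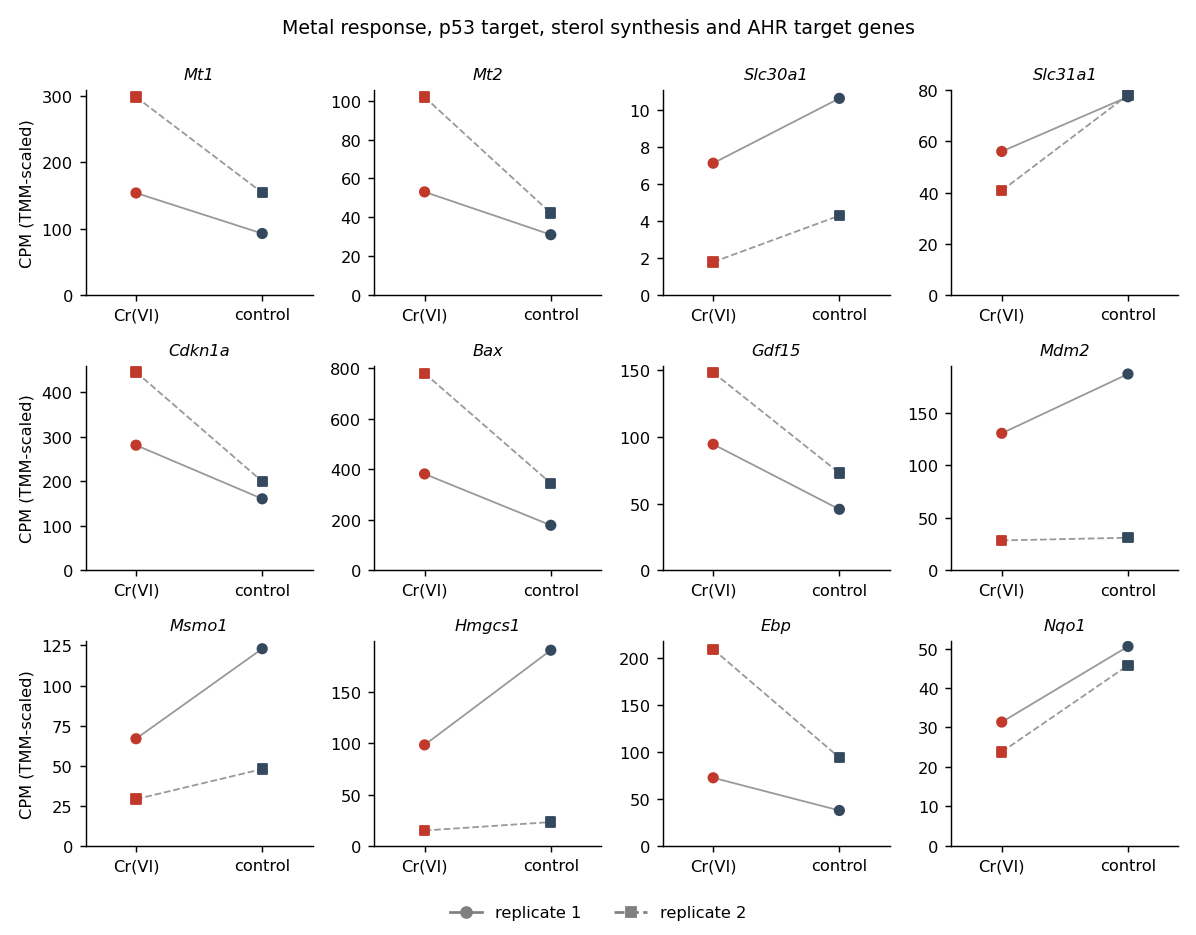
CPM of metal response, p53 target, sterol synthesis and AHR target genes in each library, Cr(VI)-grown cells at left and control-grown cells at right in each panel, with circles for replicate 1 and squares for replicate 2. Mt2, Cdkn1a, Bax, Gdf15, Slc31a1 and Nqo1 show groups that do not overlap, whereas for Mdm2 and Hmgcs1 the distance between replicates exceeds that between groups.

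Several targets of p53 were on the higher side while the median of the list lay near 0. Bax, which opens the mitochondrial outer membrane in apoptosis, had 382 and 780 CPM in Cr(VI)-grown cells, against 178 and 345 CPM in control-grown cells, a log2 difference of 1.14 ± 0.32. Cdkn1a, the cell cycle inhibitor p21, had 281 and 445 CPM in Cr(VI)-grown cells, against 160 and 199 CPM in control-grown cells. The groups did not overlap, and the log2 difference was 0.97 ± 0.38 (unadjusted p = 0.024, adjusted p = 0.25). Gdf15, a secreted stress cytokine, had 94.4 and 148 CPM in Cr(VI)-grown cells, against 45.7 and 72.9 CPM in control-grown cells. Its log2 difference was 1.04 ± 0.43, and the 2 pairs gave 1.05 and 1.02. Dcxr, a carbonyl reductase (1.61 ± 0.39), Phlda3, an inhibitor of AKT (1.10 ± 0.37), and the kinase gene Plk3 (0.72 ± 0.25) were higher as well. Mdm2, the ubiquitin ligase that limits p53, did not follow, with 130 and 28.4 CPM in Cr(VI)-grown cells, against 187 and 31.0 CPM in control-grown cells. Trp53 itself had 242 and 436 CPM in Cr(VI)-grown cells, against 158 and 389 CPM in control-grown cells, with overlap. In this list of 32 tested genes 8 were higher (25%, beside 11.9% of all genes) and 0 lower at an unadjusted p under 0.05. A positive difference was found in 19 (59.4%, beside 47.7%) and a negative one in 13. The median was 0.07 (-0.000683 to 0.17 with 1 of the 4 libraries left out), and the recovered cells' median replicate difference ran the other way, at -0.73 under DMSO. Among genes of the BCL2 family and death receptors, Bad (1.15 ± 0.41) and Bak1 (0.82 ± 0.32), both pro-apoptotic, were on the higher side.

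Genes for the repair of breaks and crosslinks were mostly lower by small amounts. Mre11a, a nuclease of the break-sensing complex, had 20.7 and 14.6 CPM in Cr(VI)-grown cells, against 28.1 and 22.0 CPM in control-grown cells, without overlap. Brca1 (-0.63 ± 0.27) and the end-joining ligase gene Lig4 (-0.78 ± 0.35) were lower too, and Fancd2, the central protein of the Fanconi pathway, differed by -0.45 ± 0.26. Fance, a subunit of the Fanconi core complex, went the other way with 0.70 ± 0.27. Of 37 tested genes 29 had a negative difference, 4 were lower and 1 higher at an unadjusted p under 0.05, and the median was -0.35. These are 78.4% below 0, 10.8% lower and 2.7% higher, beside 52.3%, 5.19% and 11.9% of all genes. The recovered cells' replicate difference had a similar median of -0.41.

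Mismatch repair, which acts on chromium-DNA adducts, had 9 tested genes, each with a difference below 0 (beside 52.3% of all genes), and a median of -0.35. Msh6, a subunit of the mismatch sensor MutS alpha, had 55.9 and 41.2 CPM in Cr(VI)-grown cells, against 80.4 and 68.8 CPM in control-grown cells. Its groups did not overlap, the log2 difference was -0.62 ± 0.20 (unadjusted p = 0.0089, adjusted p = 0.23), and it was the only gene of the 9 at an unadjusted p under 0.05. The list's median replicate difference in recovered cells was -0.41.

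Base and nucleotide excision repair did not lean to a side, with 17 of 34 tested genes positive and 17 negative and a median of 0.01. Ercc1, a subunit of the nuclease that cuts beside bulky lesions (0.83 ± 0.24), and the scaffold gene Xrcc1 (0.66 ± 0.22) were on the higher side. At an unadjusted p under 0.05, 6 genes were higher (17.6%, beside 11.9% of all genes) and 3 lower (8.82%, beside 5.19%). The recovered cells' replicate difference had a median of 0.39 over the list.

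Replication-dependent histone genes had the largest list median, 1.04 on the log2 scale. Above 0 were 32 of 32 tested genes, beside 47.7% of all genes. At an unadjusted p under 0.05, 21 were higher (65.6%, beside 11.9%). H2ac15 had 11.9 and 21.1 CPM in Cr(VI)-grown cells, against 5.15 and 10.6 CPM in control-grown cells, a log2 difference of 1.11 ± 0.31. H3c2 had 4.80 and 7.73 CPM in Cr(VI)-grown cells, against 1.25 and 4.48 CPM in control-grown cells (1.42 ± 0.42). Genes of the same histone family are close copies that may share reads, so the 32 are not independent measurements. Their transcripts are known to end without a poly(A) tail, and in recovered cells their median replicate difference was 1.30, larger than the difference between growth histories. The part of that difference was not tested. The polymerase III transcripts Rpph1 and Rmrp, RNA subunits of RNase P and RNase MRP, which also lack a poly(A) tail, stood beside them. Rpph1 had 3.78 and 10.3 CPM in Cr(VI)-grown cells, against 0.720 and 2.61 CPM in control-grown cells (2.25 ± 0.63), and its replicate difference in recovered cells under DMSO was 2.99. Rmrp had 3.54 and 12.6 CPM in Cr(VI)-grown cells, against 1.02 and 3.75 CPM in control-grown cells (1.78 ± 0.58), with 2.30 between the replicates of recovered cells. The noncoding RNA list as a whole did not share this direction. Of its 13 tested genes 8 were below 0 (61.5%, beside 52.3% of all genes), with a median of -0.13 (-0.44 to 0.32 with 1 of the 4 libraries left out). In recovered cells its median replicate difference was -2.82 under DMSO.

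Genes of G2 and mitosis were mostly below 0, against the direction of the recovered cells' replicate difference. Of 27 tested genes 21 were below 0 (77.8%, against 52.3% of all genes), 2 were lower (7.41%, near the 5.19% of all genes) and 0 higher at an unadjusted p under 0.05. The median was -0.29, and -0.16 without the Cr(VI)-grown replicate 2 library, while the replicates of recovered cells differed by 0.23. Top2a, the topoisomerase of dividing cells, had 222.5 and 124.2 CPM in Cr(VI)-grown cells, against 371 and 181 CPM in control-grown cells, a log2 difference of -0.64 ± 0.25. Nusap1, a spindle protein, had 52.6 and 17.7 CPM in Cr(VI)-grown cells, against 78.1 and 23.0 CPM in control-grown cells (-0.48 ± 0.22). The list was not uniform, since Plk1 and Cdc25b, which drive entry into mitosis, each differed by 0.51 in the other direction. Of 30 tested genes of S phase and replication, 2 were higher and 3 lower at an unadjusted p under 0.05. These are 6.67% and 10%, beside 11.9% and 5.19% of all genes. The list had a median of -0.21, and a replicate difference of 0.44 in recovered cells. That median was -0.02 without the Cr(VI)-grown replicate 2 library and -0.01 without the control-grown replicate 1 library. Pold1, the catalytic subunit of polymerase delta, was on the higher side (0.88 ± 0.31), and the helicase gene Mcm4 (-0.48 ± 0.19) on the lower.

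Sterol synthesis had the lowest list median, -0.49, with 17 of 24 tested genes below 0, and here too recovered cells differed between replicates in the other direction (0.71). The median kept its sign but was -0.26 without the Cr(VI)-grown replicate 2 library and -0.12 without the control-grown replicate 1 library. Msmo1, a C4-methylsterol oxidase, had 66.8 and 29.1 CPM in Cr(VI)-grown cells, against 122.97 and 47.9 CPM in control-grown cells, a log2 difference of -0.81 ± 0.24 (unadjusted p = 0.0053, adjusted p = 0.23). Hmgcs1, whose upstream sequence is printed above, had 98.5 and 14.9 CPM in Cr(VI)-grown cells, against 191 and 23.2 CPM in control-grown cells (-0.81 ± 0.31). The groups overlapped in both genes, because replicate 2 was lower than replicate 1 in both groups, and each pair showed the lower value in Cr(VI)-grown cells. Ebp, a later isomerase of the pathway, differed in the other direction, with 72.4 and 209 CPM in Cr(VI)-grown cells, against 37.6 and 93.9 CPM in control-grown cells (1.03 ± 0.35). At an unadjusted p under 0.05, 3 genes were lower (12.5%, against 5.19% of all genes) and 1 higher. Genes of fatty acid synthesis had a median of -0.33 (-0.17 without the Cr(VI)-grown replicate 2 library) over 15 tested genes. Of these 3 were lower (20%) and 0 higher: Elovl5, a fatty acid elongase (-0.56 ± 0.19), Acaca, acetyl-CoA carboxylase (-0.60 ± 0.23), and Scd1, stearoyl-CoA desaturase (-0.59 ± 0.23). Acaca had 83.6 and 93.2 CPM in Cr(VI)-grown cells, against 112 and 163 CPM in control-grown cells, without overlap, and recovered cells differed by 0.60 between replicates over this list.

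Antioxidant genes gave no common direction. Nqo1, a quinone reductase under both NRF2 and AHR control, had 31.4 and 23.8 CPM in Cr(VI)-grown cells, against 50.5 and 45.7 CPM in control-grown cells, without overlap and with a log2 difference of -0.80 ± 0.30 (unadjusted p = 0.018, adjusted p = 0.24). Gsr, glutathione reductase, had 76.8 and 45.7 CPM in Cr(VI)-grown cells, against 108 and 87.5 CPM in control-grown cells (-0.71 ± 0.27). Hmox1, heme oxygenase 1, had 22.6 and 30.1 CPM in Cr(VI)-grown cells, against 18.4 and 26.7 CPM in control-grown cells, a difference of 0.24 ± 0.47. The glutamate-cysteine ligase subunits Gclc (-0.21 ± 0.31) and Gclm (-0.50 ± 0.35) and the thioredoxin reductase Txnrd1 (-0.46 ± 0.30) differed by less than 2 SE. Tkt, transketolase (1.07 ± 0.39), and Slc7a11, the cystine importer (0.66 ± 0.29), were on the higher side. Of 26 tested NRF2 genes 14 were above 0 (53.8%, beside 47.7% of all genes). At an unadjusted p under 0.05, 3 were higher (11.5%, beside 11.9%) and 4 lower (15.4%, beside 5.19%). Their median of 0.13 had no stable sign, at -0.09 without the Cr(VI)-grown replicate 1 library, and the replicates of recovered cells differed by -0.46. Genes of glutathione synthesis and transfer had a median of 0.43 over 27, with 4 higher and 0 lower, among them Gss, glutathione synthetase (0.79 ± 0.28), and Gpx4, which reduces lipid peroxides (1.08 ± 0.47). In recovered cells the glutathione list differed by 1.45 between replicates, and its median was 0.21 without the Cr(VI)-grown replicate 1 library and 0.15 without the control-grown replicate 2 library. The 4 higher genes are 14.8% of the list, near the 11.9% of all genes.

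AHR target genes had a median of -0.44 without B[a]P over 14 tested genes, 9 of them below 0 (64.3%, against 52.3% of all genes). The classical target Cyp1a1 had 31.9 and 24.5 CPM in Cr(VI)-grown cells, against 37.3 and 27.95 CPM in control-grown cells, a log2 difference of -0.21 ± 0.38 and overlapping groups. Tiparp, a feedback regulator of the receptor, differed by -0.69 ± 0.32, and 1 gene of the list, Nqo1, was lower at an unadjusted p under 0.05 (7.14%, near the 5.19% of all genes). Ugt1a6a, Ugt1a6b and Ugt1a7c, glucuronosyltransferases of 1 locus with shared exons, differed by -0.63 to -0.72 and count as 1 measurement, which leaves 7 of 12 below 0. The recovered cells' replicate difference was -0.56 over the list.

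The ATF4 response, which serves amino acid supply under stress, had a median of 0.27 over 20 tested genes, 15 of them above 0 (75%, beside 47.7% of all genes), against a replicate difference of -1.26 in recovered cells under DMSO. Phgdh, the first enzyme of serine synthesis, had 934 and 1972 CPM in Cr(VI)-grown cells, against 262 and 1204 CPM in control-grown cells, with overlap and a log2 difference of 1.30 ± 0.44. Shmt2, which takes serine into mitochondrial one-carbon metabolism, differed by 0.89 ± 0.31. At an unadjusted p under 0.05, 3 genes of the list were higher (15%, near the 11.9% of all genes) and 0 lower. Below 0 were 5 of the 20, among them Atf4 itself (-0.33 ± 0.46), Mthfd2 (-0.45 ± 0.56) and Psat1 (-0.09 ± 0.27). The list's median was 0.13 without the Cr(VI)-grown replicate 2 library and 0.09 without the control-grown replicate 1 library.

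Respiratory chain, ribosomal and interferon-related genes had medians above 0, in the direction of the recovered cells' replicate difference. Oxidative phosphorylation had a median of 0.42 over 25 tested genes, with 7 higher (28%, against 11.9% of all genes) and 1 lower at an unadjusted p under 0.05, beside a replicate difference of 1.46. That median rested on 1 library, and was 0.04 without the Cr(VI)-grown replicate 1 library and 0.74 without the Cr(VI)-grown replicate 2 library. Uqcrc1, a core subunit of complex III, had 482 and 1036 CPM in Cr(VI)-grown cells, against 140 and 594 CPM in control-grown cells (1.35 ± 0.41). Ndufs1, the largest core subunit of complex I, was the lower one, with 91.3 and 57.0 CPM in Cr(VI)-grown cells, against 130 and 88.2 CPM in control-grown cells (-0.57 ± 0.20). Ribosomal protein genes had a median of 0.49 over 28, with 4 higher (14.3%, near the 11.9% of all genes) and 0 lower, and a replicate difference of 0.91. Interferon-related genes had a median of 0.43 over 26, with 8 higher (30.8%) and 0 lower, and a replicate difference of 0.37. Without the Cr(VI)-grown replicate 1 library it was 0.18. Among them Oas1a, a sensor of double-stranded RNA, had 26.2 and 49.5 CPM in Cr(VI)-grown cells, against 9.71 and 20.5 CPM in control-grown cells, without overlap (1.37 ± 0.35). Irf7, which drives interferon genes, had 3.15 and 5.80 CPM in Cr(VI)-grown cells, against 1.65 and 1.88 CPM in control-grown cells (1.20 ± 0.40), and the peptide transporter gene Tap1 differed by 0.71 ± 0.27.

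Epithelial and hepatocyte genes were higher in part. Krt8, the keratin of hepatocytes, had 1330 and 2488 CPM in Cr(VI)-grown cells, against 531 and 1375 CPM in control-grown cells (1.12 ± 0.39), and its partner Krt18 differed by 0.91 ± 0.34. Cldn3, a tight junction protein, had 337 and 698 CPM in Cr(VI)-grown cells, against 114 and 384 CPM in control-grown cells (1.24 ± 0.32), while the desmosomal gene Dsp was lower (-0.71 ± 0.24). Of 14 tested epithelial genes 4 were higher and 1 lower at an unadjusted p under 0.05. These are 28.6% and 7.14%, beside 11.9% and 5.19% of all genes. The list's median was 0.30. That median was 0.02 without the Cr(VI)-grown replicate 1 library and 0.51 without the control-grown replicate 2 library, and the replicates of recovered cells differed by 0.65. Ass1, the urea cycle enzyme argininosuccinate synthase, had 228 and 508 CPM in Cr(VI)-grown cells, against 77.2 and 257 CPM in control-grown cells (1.29 ± 0.37). Over 10 tested genes of hepatocyte transcription factors and metabolism the median was only 0.02, beside a replicate difference of 0.42 in recovered cells. At an unadjusted p under 0.05, 2 of the 10 were higher (20%) and 1 lower (10%). Of 17 tested secreted hepatocyte proteins 4 were higher (23.5%, beside 11.9% of all genes) and 0 lower. Their median was 0.42 beside a replicate difference of 1.16 in recovered cells. It was 0.64 without the control-grown replicate 1 library and 0.25 without the control-grown replicate 2 library. Fetub, fetuin B, had 11.6 and 24.6 CPM in Cr(VI)-grown cells, against 3.62 and 14.97 CPM in control-grown cells (1.21 ± 0.32), while Alb and Afp differed by -0.12 ± 0.44 and 0.16 ± 0.30.

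Markers of other liver cell types were present in part. Of 12 macrophage markers 5 were tested, and Clec4f, Marco and Vsig4 had no count in the 4 libraries. Of 12 endothelial markers 5 were tested, and Erg and Ramp2 had no count. Of 13 stellate cell and fibroblast markers 8 were tested, and Lrat, Lum and Thy1 had no count. Of 10 cholangiocyte markers 7 were tested, and Epcam had no count. Some of the tested ones were abundant, such as Krt7 with 837 and 1652 CPM in Cr(VI)-grown cells, against 325 and 1004 CPM in control-grown cells, and Dcn, the matrix proteoglycan decorin, with 666 and 731 CPM in Cr(VI)-grown cells, against 611 and 599 CPM in control-grown cells. Summed over each list, stellate cell and fibroblast markers came to 1056 and 1369 CPM in Cr(VI)-grown cells, against 892 and 1194 CPM in control-grown cells, and macrophage markers to 96.7 and 127 CPM in Cr(VI)-grown cells, against 80.04 and 95.5 CPM in control-grown cells. Endothelial markers summed to 19.96 and 30.5 CPM in Cr(VI)-grown cells, against 12.7 and 19.8 CPM in control-grown cells. Cholangiocyte markers, mostly Krt7, summed to 1068 and 1907 CPM in Cr(VI)-grown cells, against 569 and 1268 CPM in control-grown cells. Each sum was higher in Cr(VI)-grown cells within both pairs, and its part in the results was not tested. At an unadjusted p under 0.05, 1 macrophage (20%), 2 endothelial (40%), 1 stellate cell or fibroblast (12.5%) and 1 cholangiocyte marker (14.3%) were higher. These shares stand beside 11.9% of all genes, and 0 were lower in each list.

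**Figure D5:**
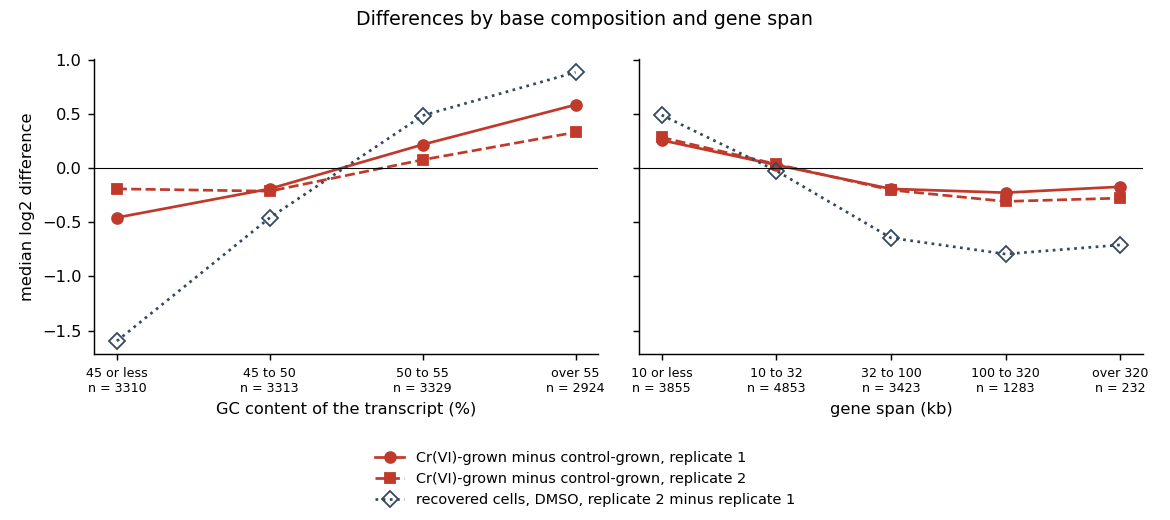
Median log2 difference by GC content of the transcript (left) and by span of the gene in the genome (right), with the number of genes per bin. Filled symbols are Cr(VI)-grown minus control-grown cells in each pair, and open diamonds are replicate 2 minus replicate 1 in recovered cells under DMSO. GC-rich and short genes lie above 0 and AT-rich and long genes below it in all 3 lines.

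The differences followed base composition and length of the genes. Genes whose transcripts had over 55% GC had a median log2 difference of 0.47 between Cr(VI)-grown and control-grown cells (2924 genes), and those with 45% or less one of -0.35 (3310 genes). By span in the genome the median was 0.27 for genes of up to 10 kb and -0.28 for those of 100 to 320 kb. Both pairs had these directions, and the replicates of recovered cells under DMSO had them too, with 0.88 and -1.60 for the same GC classes and 0.49 and -0.79 for the same span classes. In the list of very long genes, the median was -0.42 over 23 tested (-0.24 without the Cr(VI)-grown replicate 1 library and -0.17 without the control-grown replicate 2 library). At an unadjusted p under 0.05, 4 were lower (17.4%, beside 5.19% of all genes) and 0 higher. The replicates of recovered cells differed by -1.28 over this list. Diaph3, a formin of the actin skeleton, had 20.7 and 3.98 CPM in Cr(VI)-grown cells, against 34.5 and 6.68 CPM in control-grown cells, with a log2 difference of -0.74 in each pair. Sox5, a transcription factor gene, had 3.38 and 3.64 CPM in Cr(VI)-grown cells, against 5.85 and 4.54 CPM in control-grown cells (-0.52 ± 0.43). What part base composition and length have in any gene's difference was not tested. With a library score for the replicate difference as a covariate, a fit chosen after seeing the data, 0 genes passed the adjusted threshold, and 976 were higher (7.13%) and 659 lower (4.81%) at an unadjusted p under 0.05. In that fit the median was -0.67 for sterol synthesis, 0.36 for p53 targets, 0.45 for the ATF4 response, -0.06 for oxidative phosphorylation, -0.01 for glutathione synthesis and transfer and 0.55 for replication histones.

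The same contrast at passage 20 used 4 other libraries, and 414 of 14343 genes passed the adjusted threshold there (2.89%), in 1 fit over the 20 libraries that blocks on the replicate number separately for each passage. The difference between the passages was tested directly, and 0 genes passed (0%), with 785 more positive (5.47%) and 875 more negative (6.10%) at passage 25 at an unadjusted p under 0.05. This count depends on 1 library, since without the Cr(VI)-grown replicate 1 library of passage 20 there were 1051 past the threshold. In this fit, whose values at passage 25 differ slightly from those above, Cdkn1a differed by 0.93 at passage 25 and by 1.73 ± 0.34 at passage 20 (adjusted p = 0.03 for the second), and the difference between them was -0.80 (unadjusted p = 0.11). Nqo1 had a difference of -0.85 at passage 25 and of 0.58 ± 0.26 at passage 20, and the passages differed by -1.42 (unadjusted p = 0.0015, adjusted p = 0.26). Clec2d, Unc13d and Tmem86a differed by 2.04, 1.08 and 1.76 at passage 25 and by -0.49, -0.19 and 0.26 at passage 20. Mt1 and Mt2 had differences of 0.78 and 0.96 at passage 25 and of 1.07 ± 0.38 and 1.25 ± 0.38 at passage 20, and the passages differed by -0.29 and -0.30. Of the 15 named genes on each side, 12 of the higher and 11 of the lower had the same sign at passage 20, beside 65.5% of all genes above 0 and 67.1% of those below 0. Sprr2a1 and Sprr2a2, which stand for 1 measurement, are both counted among the 12. Over p53 targets the median was 0.07 at passage 25, in the fit of its 12 libraries, and 0.74 at passage 20, and 7 of the 32 genes differed between passages at an unadjusted p under 0.05.

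Under B[a]P at passage 25 the difference between Cr(VI)-grown and control-grown cells was measured in 4 other libraries again, and 0 of 13692 genes passed the adjusted threshold (0%). At an unadjusted p under 0.05 there were 784 higher (5.73%) and 488 lower (3.56%). The difference under DMSO minus that under B[a]P, which reuses the DMSO libraries, put 0 genes past it (0%), with 1805 more positive (13.2%) and 337 more negative (2.46%) under DMSO at an unadjusted p under 0.05. Here too 1 library decided the count, as 582 genes passed without the control-grown B[a]P library of replicate 2. Sulf1 differed by -1.02 ± 0.20 under DMSO and by -0.79 ± 0.20 under B[a]P. Slc31a1 had -0.70 ± 0.21 and -0.59 ± 0.21. By contrast Mt2 had 1.00 ± 0.31 under DMSO and 0.04 ± 0.31 under B[a]P, with a difference of 0.96 between them (unadjusted p = 0.047, adjusted p = 0.31), and Phgdh had 1.30 ± 0.44 and -0.88 ± 0.45, with a difference of 2.18 (adjusted p = 0.21). The library score of the replicate axis was -94.4 and 72.3 in the Cr(VI)-grown B[a]P libraries and -35.1 and 49.7 in the control-grown ones, while under DMSO it was -21.5 and 74.99 in the Cr(VI)-grown and -73.5 and 51.4 in the control-grown libraries. In replicate 1 the score thus ran higher with Cr(VI) under DMSO and lower with Cr(VI) under B[a]P, and its part in the difference between treatments was not tested.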

How the data were processed

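Total RNA of 20 Hepa-1 libraries was sequenced, and the 12 of passage 25 were used in the main comparison. The authors deposited raw counts per Entrez gene ID in 1 table, per the file headers, with 1 column per library. Tools listed in the submitters' processing notes are CASAVA 1.8, bcl2fastq, TopHat and DESeq, and the build is mm10. How reads were counted, with which annotation and strand option, is not given in the sources used here, so reads of overlapping and antisense genes cannot be told apart. Of 23373 IDs, 23275 matched a symbol in RefSeq GRCm38.p6, and 98 did not. GC content and transcript length came from GENCODE M21 for 94.0% of genes tested.

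Counts were analysed with edgeR 4.0.16 in R 4.3.3: filterByExpr, TMM scaling, and a quasi-likelihood fit of 12 libraries with 1 mean per group and the replicate number as a block (5 residual degrees of freedom). P-values are two-sided and adjusted by Benjamini-Hochberg over the genes tested, and 0.05 was the threshold. CPM use TMM-scaled library sizes, log2 differences of pairs use a prior count of 2, and SE belong to fitted log2 differences. The numbers paired the libraries: the 15 correlations of replicate differences between groups of passage 25 were 0.833 to 0.928. The library score projects each library on the replicate 2 minus replicate 1 difference of recovered cells. Alternatives were DESeq2 1.42.0, other scalings, filters and sample sets, and libraries left out.

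Named genes were those past the threshold, filled up to 15 per direction by smallest p among genes with the same sign in both pairs and a mean of at least 1 CPM. From each of 41 gene lists, up to 4 genes of smallest p and a set of fixed genes could be named; further members are given to show the spread of a list and were chosen after their values were seen. The comparison and the lists were chosen with earlier results of these data known. Results on some genes are not reported here.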

Additional observations from a re-analysis of the deposited data

Results flagged for a closer look

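No group has 4 or more libraries, so no library was tested as lying far from the others of its group. In 9 gene lists the median difference between Cr(VI)-grown and control-grown cells had 1 sign in both pairs under DMSO at passage 25 and the opposite sign in both pairs elsewhere. These differences between conditions were not tested for any list. Under B[a]P at passage 25 this held for the ATF4 response, with a median of 0.266 under DMSO (0.32 and 0.21 in the 2 pairs) and with -0.54 and -0.25 in the B[a]P pairs. It held for glutathione synthesis and transfer (0.425, against -0.89 and -0.02 under B[a]P), superoxide and peroxide removal (0.252, against -0.87 and -0.04) and iron and heme handling (0.235, against -0.89 and -0.09). It also held for cholangiocyte markers (0.199, against -0.46 and -0.31) and, barely off 0, for base and nucleotide excision repair (0.0117, against -0.28 and -0.02).

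Epithelial adhesion genes had a median of 0.304 at passage 25 under DMSO, against -0.23 and -0.64 in the pairs of passage 20 and -0.57 and -0.03 under B[a]P. Mesenchymal and matrix genes had 0.203, against -0.17 and -0.77 at passage 20 and -0.12 and -0.03 under B[a]P. Stellate cell and fibroblast markers, which share members with that list, had 0.235, against -0.30 and -0.81 at passage 20 and -0.38 and -0.06 under B[a]P. In pair 1 of the B[a]P libraries the library score was -94.4 in Cr(VI)-grown and -35.1 in control-grown cells, against -21.5 and -73.5 under DMSO, and its part in these differences was not tested.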

How the results depend on the processing

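The count of 0 genes past the adjusted threshold depended on the libraries fitted, the count filter and the tool; the cause was not tested. It was 0 with no replicate block (49 genes at an unadjusted p under 0.05, none of the 30 named genes past the threshold), with all 20 libraries (2572), with RLE scaling, with the library score as covariate and without the Cr(VI)-grown B[a]P library of replicate 1, the last 2 chosen after seeing the data. It was 2163 in the fit of the 4 libraries alone, 585 with the 6 DMSO libraries (chosen after seeing the data), 206 with DESeq2 and 4 with no count filter. Leaving out 1 of the 4 libraries gave 0 to 0 (581 to 2137 at an unadjusted p under 0.05), leaving out 1 library gave 0 to 1051 for the difference between passages and 0 to 582 for that between treatments, and with no replicate block these 2 differences gave 0 and 0 (303 and 18 at an unadjusted p under 0.05). The 30 named genes kept their sign in 390 of 390 values over 13 alternatives. Of them 30 passed the threshold in the 4-library fit and with DESeq2, 28 with the 6 DMSO libraries and 4 with no count filter. They were chosen by small p and the same sign in both pairs, and the alternatives reuse the same counts. Their signs and calls thus follow largely from that choice and are no separate evidence. Over 117 of the genes given with values in the text, 11 of 1521 values had the opposite sign. With the library score they were Mdm2 0.23, Gclc 0.13, Afp -0.28 and Sox5 0.25. With 1 library left out the ranges that crossed 0 were -0.72 to 0.33 for Alb, -0.0941 to 0.45 for Afp, -0.58 to 0.17 for Cyp1a1 and -1.22 to 0.061 for Sox5. List medians stayed within 1 SD of the 2 pairs in 389 of 533 values. With 2 libraries per group and 1 axis that separates the replicate numbers, small differences of single genes were not detectable at this depth and number. Larger ones, such as 2.53 on the log2 scale for Tex101, did not pass the adjusted threshold in the main fit either. The estimate of spread rests largely on the other libraries of passage 25. Differences of growth history cannot be told apart from anything that differed between cultures of a pair.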

Other observations

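Chaperone, signalling and chromatin genes not described above had no member past the adjusted threshold. Of 15 tested heat shock genes 11 were below 0 (73.3%, beside 52.3% of all genes). At an unadjusted p under 0.05, 1 was higher (6.67%, beside 11.9%) and 3 lower (20%, beside 5.19%). The median was -0.31, with a replicate difference of -0.48 in recovered cells. Hspd1, the mitochondrial chaperonin HSP60, had 487 and 273 CPM in Cr(VI)-grown cells, against 823 and 366 CPM in control-grown cells (-0.59 ± 0.25), and Dnaja1, a cochaperone of HSP70, had 214 and 99.4 CPM in Cr(VI)-grown cells, against 384 and 139.6 CPM in control-grown cells (-0.66 ± 0.24). Hspb8, a small heat shock protein, differed by 0.85 ± 0.34. Of 18 chaperones of the endoplasmic reticulum 0 were higher and 0 lower, with a median of -0.16. Of 19 tested immediate early genes 3 were higher (15.8%, near the 11.9% of all genes) and 0 lower. Their median of 0.05 had no stable sign, at -0.11 to 0.23 with 1 of the 4 libraries left out. The replicates of recovered cells differed by -0.49 over this list. Jund, an AP-1 subunit, had 452 and 749 CPM in Cr(VI)-grown cells, against 188 and 489 CPM in control-grown cells (0.97 ± 0.31). Of 28 tested chromatin modifier genes 21 were below 0 (75%, beside 52.3% of all genes). At an unadjusted p under 0.05, 3 were higher (10.7%, beside 11.9%) and 1 lower (3.57%, beside 5.19%). Their median of -0.24 stood beside a replicate difference of -0.59 and was 0.00 with the library score as covariate. Ezh2, the histone methyltransferase of Polycomb repressive complex 2, differed by -0.58 ± 0.22, and Ehmt2, the histone methyltransferase G9a, by 0.77 ± 0.31. Of 22 tested mesenchymal and matrix genes 5 were higher (22.7%, beside 11.9% of all genes) and 0 lower. Among them were Tgfb1, the growth factor TGF-beta 1 (0.89 ± 0.28), and Snai1, a repressor of epithelial genes (0.74 ± 0.27). The list's median was 0.20 (0.02 without the Cr(VI)-grown replicate 1 library) beside a replicate difference of -0.09. Tgfb1 had 82.9 and 165 CPM in Cr(VI)-grown cells, against 42.8 and 94.1 CPM in control-grown cells, with overlap.

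A set of 2111 genes (15.4% of those tested) differed by less than 0.5 on the log2 scale between the replicates of recovered cells, both under DMSO and under B[a]P. In it 51 genes were higher (2.42%, beside 11.9% of all genes) and 89 lower (4.22%, beside 5.19%) at an unadjusted p under 0.05. The 2 pairs correlated with r = 0.306 over its genes, beside 0.476 over all genes tested. The genes named here were chosen after their values were seen. Adgra2, an adhesion G protein-coupled receptor, had 13.8 and 18.4 CPM in Cr(VI)-grown cells, against 5.78 and 10.8 CPM in control-grown cells (1.00 ± 0.24). Itgb4, the integrin beta 4 subunit of hemidesmosomes, had 9.70 and 14.1 CPM in Cr(VI)-grown cells, against 5.60 and 7.04 CPM in control-grown cells. Gpc3, a heparan sulfate proteoglycan that marks liver tumours, had 93.3 and 80.9 CPM in Cr(VI)-grown cells, against 148 and 178 CPM in control-grown cells, without overlap. Its log2 difference was -0.89 ± 0.27 under DMSO and -0.86 ± 0.27 under B[a]P. Hlf, a transcription factor of circadian output, had 18.9 and 8.45 CPM in Cr(VI)-grown cells, against 34.2 and 25.6 CPM in control-grown cells. It differed by -1.19 ± 0.38 under DMSO and by -0.92 ± 0.38 under B[a]P. At passage 20 Adgra2 (-0.45 ± 0.26) and Itgb4 (-0.39 ± 0.24) had the opposite sign, while Gpc3 (-0.39 ± 0.23) and Hlf (-0.85 ± 0.48) kept theirs. The importer Slc31a1 and the mismatch repair gene Msh6, described above, also belong to this set.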
